A study of Mus musculus with 42 samples.

Results

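The NRF2 pathway is the main transcriptional defence of mammalian cells against oxidants and electrophiles. Its 9 genes described here were Nfe2l2, Keap1, Hmox1, Gclc, Gclm, Txnrd1, Srxn1, Nqo1 and G6pdx. They were listed by name, with earlier results of these data known, and matched by symbol to the gene identifiers of the expression files. The shares of all genes given beside them below are therefore descriptions and no test of the set. All 9 were among the 14296 genes with values. Their levels were read in 42 libraries of poly-A RNA from W9.5 mouse embryonic stem cells (mESCs) of strain 129X1/SvJ that differentiated without direction into embryoid bodies (EBs), the cell aggregates that form once leukemia inhibitory factor (LIF) is withdrawn. The 21 time points ran from the undifferentiated cells at 0 h to 120 h every 6 h, with duplicate libraries, A and B, at each. Both replicates were low passage cultures of a single line, so the p-values below measure the spread between such duplicate cultures and not between lines or animals.

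In unstressed cells the adaptor KEAP1 holds the transcription factor NRF2, the product of Nfe2l2, on a CUL3 ubiquitin ligase, and NRF2 is degraded as fast as it is made. Oxidants or electrophiles modify cysteines of KEAP1, NRF2 then accumulates, pairs with a small MAF protein and binds antioxidant response elements (AREs) near its target genes. Much of the control is therefore on the protein, which an RNA measurement does not see. The targets make glutathione, keep thioredoxin and peroxiredoxin reduced, break down heme, reduce quinones and supply NADPH. Pluripotent cells rely on these systems, and several of the genes also respond to other signals, Hmox1 to heme and to stress kinases among them.

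Since the ARE is what joins the targets, the promoters were searched for it. RefSeq promoter windows on GRCm38.p6, from 250 bases before to 50 after a transcription start, were at hand for 7 of the 9 genes, in 9 windows, of which Txnrd1 has 3. Gclc and Hmox1 had no entry. The ARE core TGACNNNGC was looked for on both strands, with the AP-1 site TGANTCA beside it, whose first letters overlap those of the ARE. The core was in 5 of the 9 windows, 1 each of Nfe2l2, Srxn1, Gclm, Txnrd1 and G6pdx, and in 12.4% of all 32851 windows. An AP-1 site was in 1 of the 9 windows and in 7.81% of all. The 250 bases before the start are printed for Srxn1 and Gclm, which rose at 6 h, and for Nfe2l2 and G6pdx, which hold the core as well and did not pass the test at that time. Letters run 5′ to 3′ along the gene, and capitals mark a match in either direction.
Srxn1: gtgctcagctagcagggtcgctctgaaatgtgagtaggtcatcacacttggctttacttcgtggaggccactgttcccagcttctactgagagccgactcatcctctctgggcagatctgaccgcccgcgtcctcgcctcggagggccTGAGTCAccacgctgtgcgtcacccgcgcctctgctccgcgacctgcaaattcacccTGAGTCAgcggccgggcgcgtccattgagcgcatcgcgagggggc
Gclm: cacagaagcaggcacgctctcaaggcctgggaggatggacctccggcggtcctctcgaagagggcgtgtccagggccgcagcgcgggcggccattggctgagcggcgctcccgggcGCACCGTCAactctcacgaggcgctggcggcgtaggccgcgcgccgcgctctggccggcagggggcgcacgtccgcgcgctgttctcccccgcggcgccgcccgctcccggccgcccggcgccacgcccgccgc
Nfe2l2: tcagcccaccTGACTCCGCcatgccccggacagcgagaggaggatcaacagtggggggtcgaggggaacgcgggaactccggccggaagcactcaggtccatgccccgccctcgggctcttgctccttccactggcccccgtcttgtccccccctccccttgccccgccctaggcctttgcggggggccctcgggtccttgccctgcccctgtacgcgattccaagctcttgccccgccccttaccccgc
G6pdx: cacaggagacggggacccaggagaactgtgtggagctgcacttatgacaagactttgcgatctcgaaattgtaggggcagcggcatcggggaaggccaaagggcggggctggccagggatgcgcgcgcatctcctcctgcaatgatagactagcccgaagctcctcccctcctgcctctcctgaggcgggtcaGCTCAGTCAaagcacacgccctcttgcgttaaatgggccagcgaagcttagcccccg
The Srxn1 run lies at chr2:152105274-152105523 on the plus strand, and its capitals are AP-1 sites that begin at positions -102 and -45 from the start. The site at -45 is followed by gc, so it differs from the searched ARE core only by a G in place of the C of TGAC. A looser form of the ARE was not searched. The match of Srxn1 to the searched core, TGACCTAGC on the minus strand, lies at +29 and so beyond the printed run. In Gclm, at chr3:122245307-122245556 on the plus strand, the core reads TGACGGTGC on the opposite strand at -134. The Nfe2l2 run, at chr2:75704664-75704913 on the minus strand, holds TGACTCCGC at -240, in the direction of the gene. That of G6pdx, at chrX:74428881-74429130 on the minus strand, holds TGACTGAGC on the opposite strand at -57. Txnrd1 held TGACAAAGC on the opposite strand, at -92 in the window that begins at base 82858956 of chromosome 10. No match was found in the windows of Keap1 and Nqo1, which says only that these letters are not in those 300 bases. A match is a string of letters here, since binding was not measured.

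A median of 29692082 reads was counted per library, from 10120972 to 51652434, so that 3 reads stood for between 0.0571 and 0.316 CPM (reads scaled for library size) and the 9 genes had 224 to 18490 reads each. The values are log2 CPM, and SE, fold changes and adjusted p-values come from limma with the Benjamini-Hochberg correction over all genes. A gene is called differentially expressed at adjusted p < 0.0001, the threshold of the study. The 7 markers of naive stem cells summed to 2550 and 2640 CPM in the 0 h libraries, as the label of mESCs says, and to 398 and 401 CPM at 48 h. The duplicates of 96 h stood apart. Across all genes, the median gap between them was 0.41 in log2, against 0.09 to 0.27 at the other time points, and the 4 primitive streak markers summed to 101 CPM in replicate A and 474 CPM in replicate B. Calls that rest on 96 h are also given without 1 of its libraries. All time points share 1 estimate of the spread, so the 96 h pair also enters the SE of every other contrast. The SD between the 96 h duplicates was 0.824 for Nqo1 and 0.755 for G6pdx, against 0.209 and 0.187 pooled over the course. In a bulk sample, fewer cells of a type and less RNA per cell cannot be told apart.

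Of the 9 genes, 8 changed over the time course in the F test, where 74.6% of all genes did. Per length of exon, the median levels over the 42 libraries ran from 84.7 CPM per kb for Hmox1, 48.4 for Txnrd1, 26.4 for Nfe2l2, 25.5 for G6pdx, 23.1 for Gclc, 18.1 for Gclm and 14.2 for Nqo1 to 8.87 for Srxn1 and 5.03 CPM per kb for Keap1. The ranges over the course of each gene and the next in this order overlapped, so the order holds for medians only. In the undifferentiated cells Txnrd1 led with 33.1 and 31.8 CPM per kb in replicates A and B, beside 29.6 and 31.0 for Hmox1, and the ranges of these 2 genes did not overlap at 0 h. At 6 h the mean was 183 CPM per kb for Hmox1 and 53.7 CPM per kb for Txnrd1. The highest mean of 4 of the 9 genes, Nfe2l2, Keap1, Gclm and Srxn1, was at 6 h, and that of 3, Hmox1, Gclc and Txnrd1, at 108 h. Of all genes, 11.3% were highest at 6 h and 10.7% at 108 h.

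**Figure D1:**
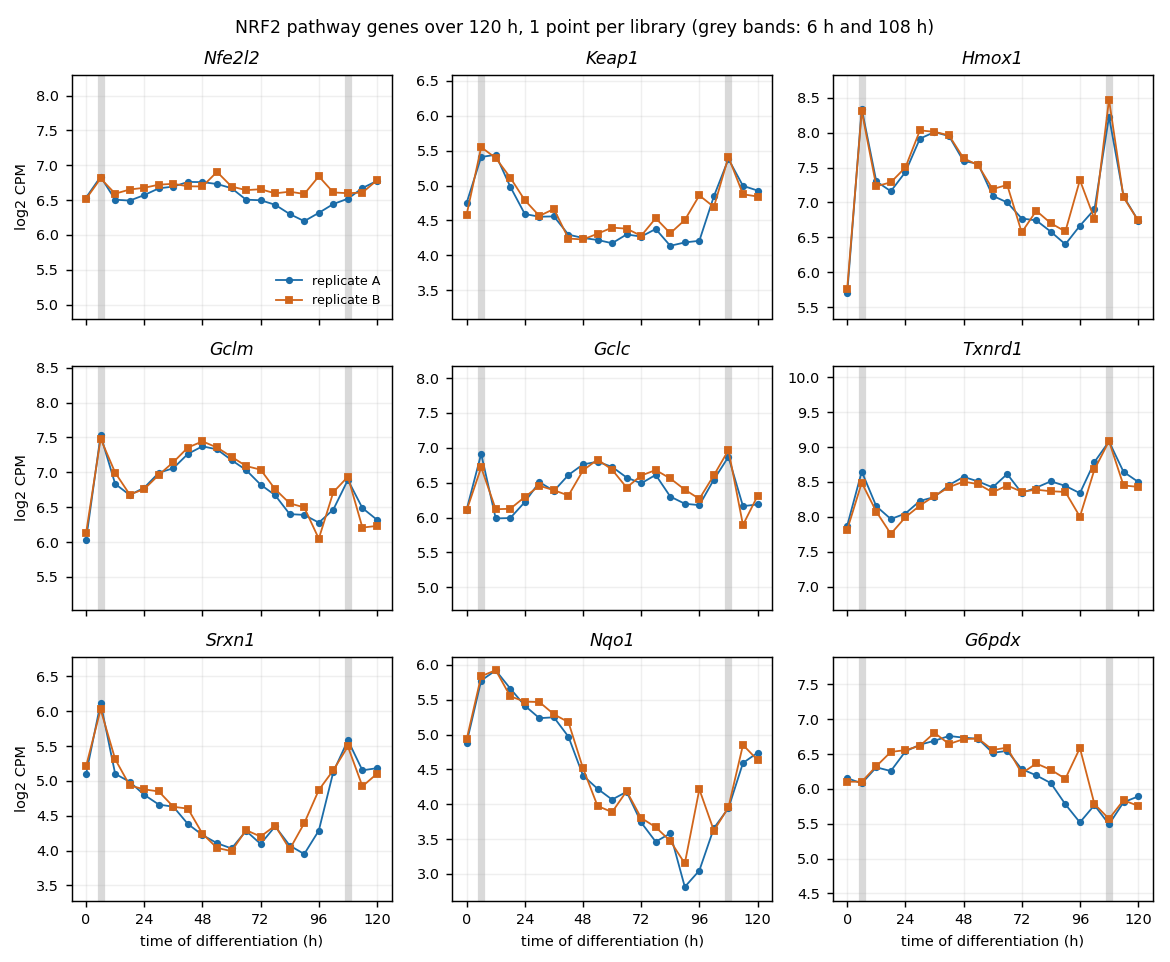
Level of each of the 9 genes in log2 CPM (vertical axis) against hours of differentiation (horizontal axis), with 1 point per library, a line for each of replicates A and B, and grey bands at 6 h and 108 h. Each panel has its own position on the axis and spans the same number of log2 units. The mean of Hmox1 was 5.73 at 0 h, 8.33 at 6 h and 8.35 at 108 h, that of Nqo1 was 5.92 at 12 h and 2.98 at 90 h, and the means of Nfe2l2 stayed within 6.39 and 6.82.

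Nfe2l2, which encodes the factor itself (ENSMUSG00000015839.6, chr2:75675513-75704641, minus strand, GRCm38), was the flattest of the 9. Its level was 6.54 and 6.52 log2 CPM in replicates A and B at 0 h, 6.83 and 6.81 at 6 h, 6.20 and 6.59 at 90 h, and 6.78 and 6.79 at 120 h. The 6 h libraries lay above those of 0 h, and the replicates at 90 h lay farther apart than the means of 0 h and 6 h. Highest and lowest mean differed by 0.43 on the log2 scale, or 1.35-fold. The F test gave 1.62 with a limma adjusted p of 0.126, and 96.1% of all genes had a higher F. No time point differed from 0 h past the threshold, and the step to 6 h was 0.30 ± 0.13 (SE, limma adjusted p = 0.0515).

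Keap1, the inhibitor (ENSMUSG00000003308.8, chr9:21229730-21239361, minus strand), went through an early high at 6 h and 12 h, a long low stretch and a second high. It had 4.75 and 4.58 log2 CPM in replicates A and B at 0 h, 5.41 and 5.55 at 6 h and 5.44 and 5.39 at 12 h. From 42 h to 90 h all libraries lay between 4.13 and 4.53, and at 108 h they reached 5.38 and 5.41. The libraries of 6, 12 and 108 h lay above both of 0 h, and at these 3 time points the gene was called higher than at 0 h. Its fold at 6 h was 1.76 (log2 difference 0.81 ± 0.14 SE, limma adjusted p = 1.86e-05), and that call was lost without any 1 of the 4 libraries of 0 h and 6 h (log2 0.73 to 0.90, adjusted p = 0.000125 to 0.00112).

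Hmox1 encodes heme oxygenase 1, which opens the heme ring and frees iron, carbon monoxide and biliverdin (ENSMUSG00000005413.7, chr8:75093621-75100589, plus strand). It started from 5.70 and 5.76 log2 CPM in replicates A and B at 0 h, the lowest levels of its course, and stood at 8.35 and 8.31 at 6 h. It then had 7.16 and 7.29 at 18 h, 8.01 and 8.01 at 36 h, 6.40 and 6.58 at 90 h, 8.23 and 8.48 at 108 h, and 6.74 and 6.74 at 120 h. The course thus held 3 highs, at 6 h, around 36 h and at 108 h, and no later library came down to the level of the undifferentiated cells. Hmox1 was called higher than 0 h at all 20 later time points, from 1.70-fold at 90 h to 6.17-fold at 108 h. At 96 h the log2 difference was 1.59 without replicate A and 0.94 without replicate B of that time, and both were called.

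The rate-limiting enzyme of glutathione synthesis has a catalytic subunit, Gclc (ENSMUSG00000032350.8, chr9:77754535-77794485, plus strand), and a modifier, Gclm (ENSMUSG00000028124.9, chr3:122245557-122270732, plus strand). Gclm had 6.03 and 6.13 log2 CPM in replicates A and B at 0 h, 7.53 and 7.48 at 6 h, 6.67 and 6.68 at 18 h, 7.37 and 7.44 at 48 h, and 6.32 and 6.23 at 120 h. Gclc had 6.12 and 6.10 at 0 h, 6.91 and 6.72 at 6 h, 5.99 and 6.12 at 12 h, 6.80 and 6.83 at 54 h, 6.87 and 6.97 at 108 h, and 6.16 and 5.89 at 114 h. Both subunits had a high at 6 h, another around 48 to 54 h and a last one at 108 h, and those of Gclc at 54 h and 108 h were near its first. The modifier was called higher than at 0 h at 15 time points, every one from 6 h to 78 h and then 102 h and 108 h. The catalytic subunit was called at 5, namely 6, 48, 54, 60 and 108 h, and its means spanned 1.85-fold in all, less than any of the 9 but Nfe2l2.

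Txnrd1 and Srxn1 act on the thiol peroxidase systems. Txnrd1, the cytosolic thioredoxin reductase (ENSMUSG00000020250.9, chr10:82833951-82897712, plus strand), had 7.87 and 7.81 log2 CPM in replicates A and B at 0 h, 8.65 and 8.49 at 6 h, 7.97 and 7.75 at 18 h, 9.08 and 9.09 at 108 h, and 8.50 and 8.43 at 120 h. It was called higher than at 0 h at 14 time points, which were 6 h, 42 h to 90 h and 102 h to 120 h, and most at 108 h (2.36-fold). Srxn1, the sulfiredoxin that restores overoxidized peroxiredoxins (ENSMUSG00000032802.7, chr2:152105516-152111376, plus strand), took another path. It had 5.10 and 5.21 at 0 h, 6.12 and 6.02 at 6 h, 4.03 and 3.99 at 60 h, 5.58 and 5.49 at 108 h, and 5.18 and 5.10 at 120 h. It was above its starting level at 6 h, then called lower than 0 h at 8 time points from 48 h to 90 h, by as much as 2.21-fold at 60 h, and at 96 h without replicate B of that time (log2 -0.87), and its 120 h libraries overlapped those of 0 h.

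Nqo1 encodes a quinone reductase that uses NAD(P)H (ENSMUSG00000003849.8, chr8:107388225-107403206, minus strand), and it had the widest range of the 9 genes. Its levels were 4.88 and 4.93 log2 CPM in replicates A and B at 0 h, 5.78 and 5.84 at 6 h, 5.92 and 5.92 at 12 h, 2.81 and 3.15 at 90 h, 3.05 and 4.21 at 96 h, and 4.74 and 4.63 at 120 h. It thus peaked at 12 h, declined for more than 3 days and came back towards its start. Highest and lowest mean differed 7.67-fold. It was called higher than 0 h at 12 h (2.02-fold) and lower at 6 time points from 72 h to 102 h, where the 0 h mean exceeded that of 90 h 3.79-fold. The 96 h call was lost without replicate A of that time (log2 -0.69, limma adjusted p = 0.000164), and without its replicate B the difference was -1.86 (limma adjusted p = 2.04e-11). G6pdx encodes the X-linked glucose-6-phosphate dehydrogenase, the first enzyme of the pentose phosphate pathway and a source of NADPH (ENSMUSG00000031400.4, chrX:74409483-74429194, minus strand). With 6.15 and 6.10 at 0 h, 6.08 and 6.10 at 6 h, 6.69 and 6.80 at 36 h, and 5.49 and 5.57 at 108 h, it was lowest where Hmox1, Gclc and Txnrd1 were highest. None of its 20 differences from 0 h was called, that of 96 h only without replicate B of 96 h (log2 -0.61, limma adjusted p = 9.75e-05), although the F test over the course was (limma adjusted p = 9.26e-07). The SE of each of these differences of G6pdx carries its 96 h pair, which lay 1.07 apart in log2. The near-identical copy G6pd2 is not among the genes with values, and how reads common to both were counted is not known.

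For the 9 genes at 20 time points, 73 of 180 differences from 0 h were called, 59 higher and 14 lower, beside 26.5% of such differences over all genes. All of these share the 0 h libraries. Without replicate B of 0 h the number was 48, and without both libraries of 96 h it was 86 over the 19 time points left.

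**Figure D2:**
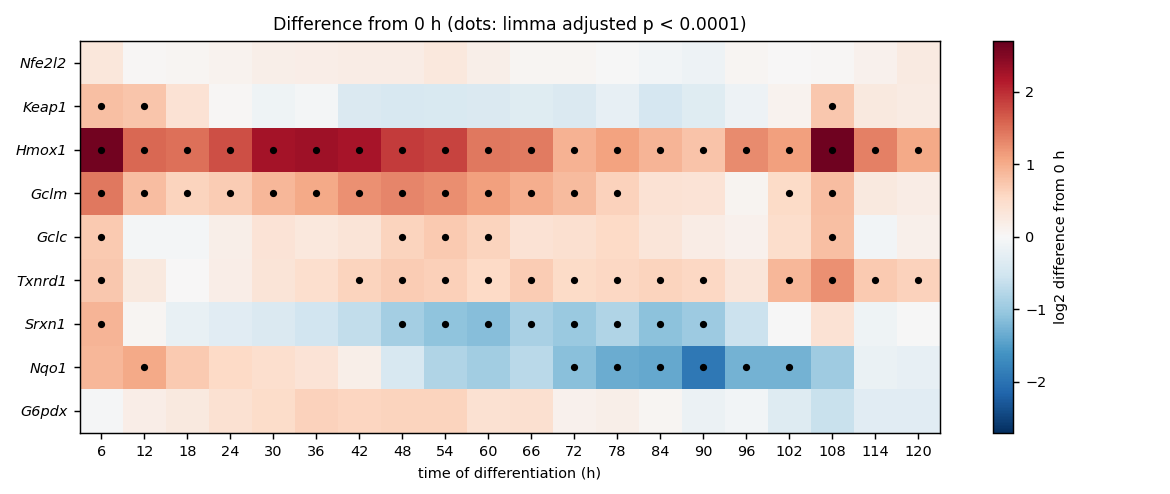
Log2 difference of the mean from 0 h (colour, red higher and blue lower) for the 9 genes (rows) at the 20 later time points in h (columns). Dots mark limma adjusted p < 0.0001, which Hmox1 has at all 20 time points, Gclm at 15, Txnrd1 at 14 and Nfe2l2 and G6pdx at none.

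The first 6 h of differentiation moved most of the set. Of the 9 genes, 6 rose from 0 h to 6 h and none fell, against 11.8% of all genes higher and 14.5% lower. Hmox1 increased 6.06-fold (log2 2.60 ± 0.13 SE, limma adjusted p = 7.45e-15) and Gclm 2.68-fold (1.42 ± 0.10, limma adjusted p = 4.36e-12). The other 4 rose less, from 1.63-fold for Gclc and 1.65-fold for Txnrd1 to 1.76-fold for Keap1 and 1.89-fold for Srxn1. Nqo1 was higher by 0.90 ± 0.20 without passing the threshold (limma adjusted p = 0.00033). Its change was 0.89 in replicate A and 0.91 in replicate B, and its SE carries the wide 96 h pair. G6pdx differed by -0.04 ± 0.18 (limma adjusted p = 0.873). In 8 genes, all but G6pdx, both libraries of 6 h lay above both of 0 h, which held for 39.2% of all genes. The median of the 9 was 0.81 on the log2 scale, and that of all genes was -0.05. Without 1 of the 4 libraries between 3 and 5 genes remained past the threshold, with the lowest number without replicate A of 6 h. Hmox1, Gclm and Txnrd1 kept their call in each case. The call of Srxn1 was lost without replicate A of 0 h (log2 0.86, limma adjusted p = 0.000175) or of 6 h (0.87, 0.00016). That of Gclc was lost without replicate A of 6 h (0.61, 0.000327) or replicate B of 0 h (0.70, 0.000103).

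Summed levels of cell type markers moved in the same 6 h, though not every gene of a list moved with its sum. The 7 measured of 8 fibroblast markers, which feeder cells would carry, summed to 46.6 and 49.4 CPM in the libraries of 0 h and to 15.7 and 15.1 CPM at 6 h. Most of the 0 h sum was Thy1 (mean 4.37 to 3.3 log2 CPM) and Pdgfrb (4.44 to 1.71). Col1a1 was also lower at 6 h (2.4 to 1.0 log2 CPM). Col1a2, Col3a1, Dcn and Postn had means of -2.88 log2 CPM or lower at both time points. That is near or below the level of 3 reads, so no direction is given for them. The 4 measured of 8 extraembryonic endoderm markers went from 6.82 and 7.55 to 12.9 and 13.5 CPM. Sox7 (1.47 to 3.07 log2 CPM), Gata6 (-1.7 to 0.01) and Dab2 (0.5 to 0.68) were higher, and Gata4 (1.37 to 1.08) was lower. The naive stem cell markers went from 2550 and 2640 to 3450 and 3350 CPM, although Klf4 (8.43 to 7.11 log2 CPM) and Tfcp2l1 (8.76 to 8.62) were lower. The 4 neuroectoderm markers went from 17.8 and 14.4 to 63.7 and 57.8 CPM, mainly by Nes (3.64 to 5.8 log2 CPM). Sox1 went from 1.77 to 1.71, and Pax6 (-3.62 to 0.52) and Zic1 (-5.58 to -2.45) rose from low levels. Of 8 blood and macrophage markers, cells in which heme oxygenase is abundant, 2 were among the genes with values. They summed to 31.5 and 31.9 CPM at 0 h and to 24.3 and 27.1 CPM at 6 h, nearly all of it Cd68 (4.9 to 4.62 log2 CPM). The part of these cell types in the change of the 9 genes was not tested.

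The rise was short for most of the genes. From 6 h to 12 h Hmox1 fell by 1.06 on the log2 scale, Srxn1 by 0.86, Gclc by 0.76 and Gclm by 0.59. These 4 of the 9 passed, where 2.88% of all genes fell. Hmox1 kept its call without any 1 of the 4 libraries of 6 h and 12 h, Gclm and Srxn1 lost it without each (limma adjusted p up to 0.00452 and 0.0026), and Gclc lost it without replicate A of 6 h (log2 -0.67) or of 12 h (log2 -0.70). Nqo1 differed by 0.12 ± 0.20 (limma adjusted p = 0.714) and Keap1 by -0.06 ± 0.14 (limma adjusted p = 0.793) in this step. By 24 h, 5 of the 9 genes had fallen from their 6 h level, where 5.76% of all genes had. These were Srxn1 (log2 -1.23), Hmox1 (-0.86), Keap1 (-0.79), Gclm (-0.74) and Txnrd1 (-0.55), and without any 1 of the 4 libraries only the calls of Srxn1 and Gclm were left. Compared with 0 h, Hmox1 and Gclm were still called higher at 24 h.

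The middle of the course brought slow changes. From 24 h to 48 h Gclm rose by 0.64 ± 0.10 on the log2 scale (limma adjusted p = 1.06e-05), 1 of the 9 where 8.97% of all genes changed in either direction, and the call was lost without any 1 of the 4 libraries (limma adjusted p = 0.000178 to 0.00063). In the same day Nqo1 differed by -0.98 ± 0.20 (limma adjusted p = 0.000323) and Txnrd1 by 0.52 ± 0.10 (limma adjusted p = 0.000118). From 48 h to 72 h Hmox1 fell by 0.94 on the log2 scale (limma adjusted p = 2.35e-06), 1 of the 9 where 9.38% of all genes changed. Without replicate B of 48 h the difference was -0.92 and without replicate B of 72 h it was -0.84, neither past the threshold. From 72 h to 96 h Gclm fell by 0.77 (limma adjusted p = 2.15e-06), 1 of the 9 where 3.39% of all genes changed. That call was lost without replicate B of 72 h (log2 -0.66) or of 96 h (log2 -0.65), and without replicate A of 96 h Gclm (log2 -0.88) and Hmox1 (log2 0.65) passed. G6pdx passed without replicate B of 96 h (log2 -0.73).

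From 96 h to 120 h none of the 9 was called by limma, where 1.94% of all genes were, and 3 passed at adjusted p < 0.05, where 17.8% of all genes did. Nqo1 differed by 1.06 ± 0.20 (limma adjusted p = 0.000406). Without replicate B of 96 h it was called (log2 1.64, limma adjusted p = 6.41e-09), and without replicate A of 96 h the difference was 0.47 (limma adjusted p = 0.0126). Srxn1 was called without replicate B (log2 0.86) and G6pdx without replicate A (log2 -0.76) of 96 h. Replicate B of 96 h exceeded replicate A by 1.17 on the log2 scale for Nqo1, 1.07 for G6pdx, 0.66 for Hmox1, 0.65 for Keap1, 0.58 for Srxn1 and 0.52 for Nfe2l2, while Txnrd1 differed by -0.34. For each of these 7 genes that was beyond the largest difference at any other time point. Gclc (0.09) and Gclm (-0.23) stayed within theirs. Which culture was the usual one cannot be told from a pair.

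**Figure D3:**
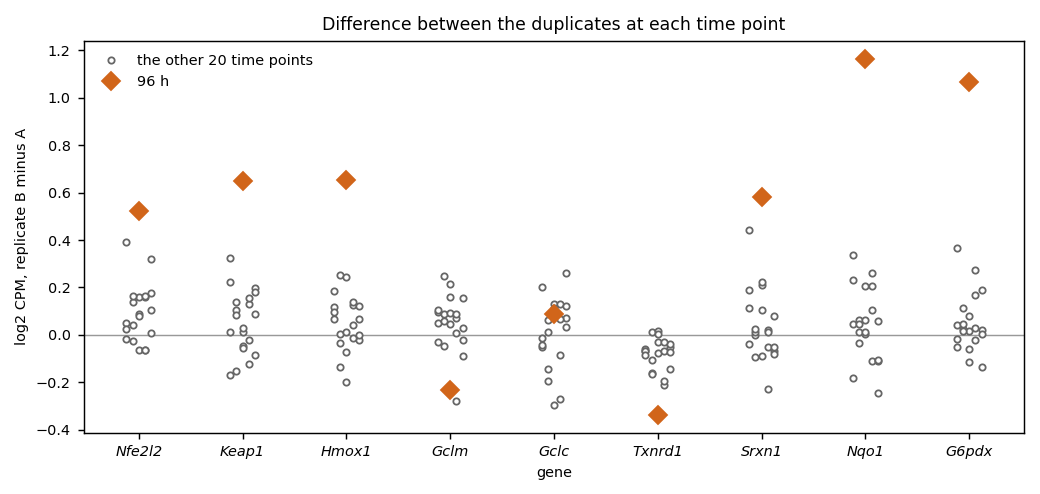
Replicate B minus replicate A in log2 CPM (vertical axis) for the 9 genes (horizontal axis), with a circle for each of 20 time points and an orange diamond for 96 h. The diamonds reach 1.17 for Nqo1 and 1.07 for G6pdx, whereas the largest absolute difference elsewhere is 0.44, for Srxn1 at 90 h.

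A late pulse of Hmox1, the last of its 3 highs, came at 108 h. It had 6.90 and 6.76 log2 CPM in replicates A and B at 102 h, 8.23 and 8.48 at 108 h, and 7.09 and 7.07 at 114 h. The rise was 2.87-fold (log2 1.52 ± 0.13 SE, limma adjusted p = 5.68e-09), and it was called without any 1 of the 4 libraries. Hmox1 was the only 1 of the 9 to pass in this step, where 1.37% of all genes rose and 0.672% fell. In 7 of the 9 both libraries of 108 h lay above both of 102 h, which held for 30.1% of all genes. At adjusted p < 0.05 there were 6, with log2 differences of 0.63 for Keap1, 0.40 for Srxn1, 0.35 for Txnrd1, 0.34 for Gclc and 0.32 for Gclm beside Hmox1, and 8.92% of all genes were higher at this threshold. Nqo1 differed by 0.31 ± 0.20, Nfe2l2 by 0.03 ± 0.13 and G6pdx by -0.24 ± 0.18.

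For 4 of the genes the step before, from 96 h to 102 h, was at least as large. Txnrd1 differed by 0.56 ± 0.10, Srxn1 by 0.57 ± 0.14, Gclm by 0.43 ± 0.10 and Gclc by 0.35 ± 0.11, each higher in both replicates and past adjusted p < 0.05 in limma but not past 0.0001. At adjusted p < 0.05, 4.04% of all genes were higher in this step. Hmox1 differed by -0.16 ± 0.13, with 0.24 in replicate A and -0.56 in replicate B. The step starts from the 96 h libraries. Without replicate A of 96 h Txnrd1 was called (log2 0.73), as was G6pdx (log2 -0.81), and Srxn1 differed by 0.27. Without replicate B of 96 h none was called, with 0.39 for Txnrd1 and 0.86 for Srxn1.

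From 108 h to 114 h Hmox1 fell by 1.27 on the log2 scale (limma adjusted p = 1.26e-07) and Gclc by 0.89 (limma adjusted p = 1.75e-06), 2 of the 9 where 0.734% of all genes fell. The call of Gclc was lost without replicate B of 108 h (log2 -0.84, limma adjusted p = 0.000182) or of 114 h (log2 -0.76, limma adjusted p = 0.000323). Nqo1 differed by 0.77 ± 0.20 in the other direction (limma adjusted p = 0.00606). The neuroectoderm markers summed to 355 and 328 CPM at 108 h and to 202 and 187 CPM at 120 h. That sum was mostly Nes, the only one of them lower at 120 h (mean 8.21 to 7.17 log2 CPM). Sox1 (5.42 to 5.56), Pax6 (0.4 to 0.96) and Zic1 (-1.31 to -0.25) were higher at 120 h. The fibroblast markers summed to 35.2 and 35.6 CPM at 108 h and to 108 and 97.5 CPM at 120 h, there mostly Col1a1 and Col1a2. The part of these cell types in the pulse was not tested.

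Over the 20 consecutive steps, 13 of the 180 gene-steps of the 9 genes were called, where 1.77% of the gene-steps of all genes were. They all fell in 4 steps, 6 from 0 h to 6 h, 4 from 6 h to 12 h, 1 from 102 h to 108 h and 2 from 108 h to 114 h. In the other 16 steps limma called 0 of 144 gene-steps, 30 of which had an unadjusted p under 0.05 and 6 an adjusted p under 0.05. Over all genes the shares in these steps were 0.0638%, 16.3% and 2.92%. Leaving out replicate A of 6 h gave 7 calls, and leaving out replicate A of 96 h gave 21.

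**Figure D4:**
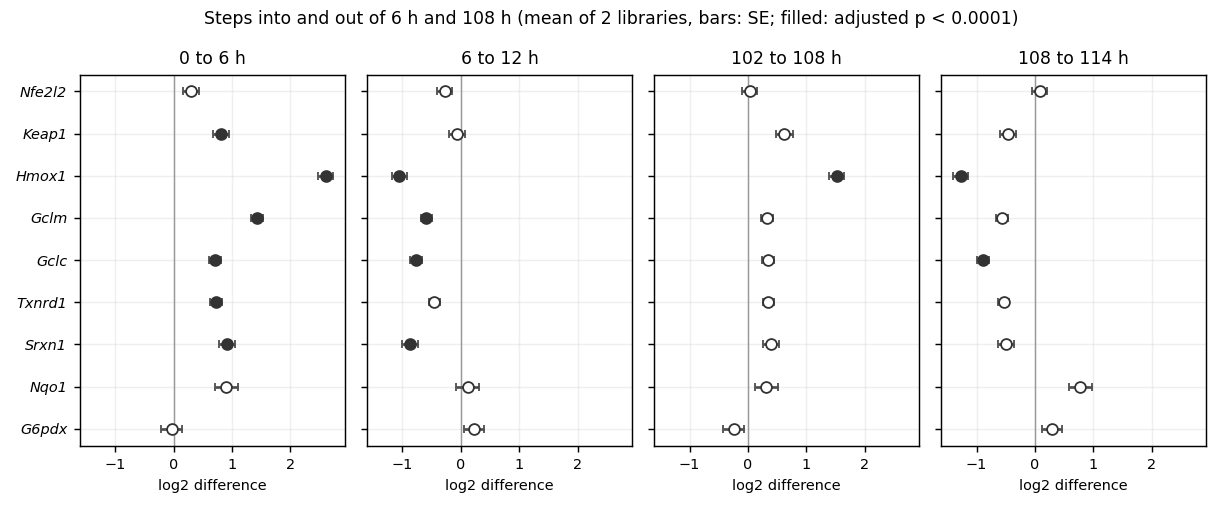
Log2 difference (horizontal axis) of the 9 genes (rows) in the steps from 0 h to 6 h, 6 h to 12 h, 102 h to 108 h and 108 h to 114 h, 1 panel each, as the mean of 2 libraries with bars of 1 SE. The 13 filled points have limma adjusted p < 0.0001, and the largest is Hmox1 at 6 h (2.60).

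The genes differed in direction between mid-course and the end. From 48 h to 120 h Gclm fell by 1.13 on the log2 scale (limma adjusted p = 2.3e-10), G6pdx by 0.90 (limma adjusted p = 9.03e-05) and Hmox1 by 0.87 (limma adjusted p = 2.23e-06), while Srxn1 rose by 0.91 (limma adjusted p = 2.92e-06). These were 4 of 9, where 25.2% of all genes changed. Gclm kept its call without any 1 of the 4 libraries and G6pdx lost it without each (adjusted p up to 0.00276). Hmox1 lost it without replicate B of 48 h (log2 -0.85), and Srxn1 lost it without replicate A of 48 h (log2 0.90) or of 120 h (log2 0.87). From end to end of the course, Hmox1 was higher at 120 h by 1.01 ± 0.13 on the log2 scale (2.02-fold, limma adjusted p = 2.05e-07) and Txnrd1 by 0.62 ± 0.10 (1.54-fold, limma adjusted p = 4.08e-06). That is 2 of 9 higher and none lower, beside 12.9% of all genes higher and 10.1% lower. The call of Txnrd1 was lost without replicate A of 120 h (log2 0.58) or replicate B of 0 h (log2 0.59).

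Of the 14 NRF2 regulators and partners listed beside the 9 genes, 5 rose and 2 fell in the first 6 h, beside 11.8% and 14.5% of all genes, with a median of 0.46 on the log2 scale. Sqstm1, the autophagy receptor p62 that binds KEAP1, rose by 1.23 ± 0.12. Pgam5, a phosphatase that KEAP1 also binds, rose by 0.77, Mafg, a small MAF partner, by 0.66, Cul3, the ligase scaffold, by 0.62, and Nfe2l1, the related factor NRF1, by 0.52. Btrc, the β-TrCP receptor of a second ligase that acts on NRF2, fell by 1.03 ± 0.09, and Nfe2l3, a relative of NRF2, fell by 2.14 ± 0.36 from a level of 1.68 log2 CPM. The call of Nfe2l3 was lost without replicate B of 6 h (log2 -1.58) and without either library of 0 h.

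Of 26 other known targets of NRF2 listed, 25 were measured. Of these 0 rose and 3 fell from 0 h to 6 h in limma, with a median of -0.25, where 11.8% of all genes rose and 14.5% fell. At an unadjusted p under 0.05 there were 4 higher and 11 lower, where 29.0% and 33.0% of all genes were. Ephx1, the microsomal epoxide hydrolase, fell by 2.80 ± 0.22 (5.24 to 2.44 log2 CPM) and kept its call without any 1 library. Abcc1, an exporter of glutathione conjugates, fell by 0.90 ± 0.14, a call lost without replicate A of 0 h (log2 -0.85) or replicate B of 6 h (log2 -0.89). Mgst1, a microsomal glutathione transferase with only 0.63 log2 CPM at 0 h, fell by 1.43 ± 0.28, and its call was lost without each library but replicate B of 6 h. Of 27 measured antioxidant enzymes outside these lists, of 28 listed, 1 rose and 2 fell, with a median of -0.16. Gpx1, a glutathione peroxidase, rose by 1.44 ± 0.20, Glrx, a glutaredoxin, fell by 1.30 ± 0.13, and Sesn1, a sestrin, fell by 1.18 ± 0.15. Over the 3 lists the number of calls was 13, and 7 without replicate A of 0 h.

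**Figure D5:**
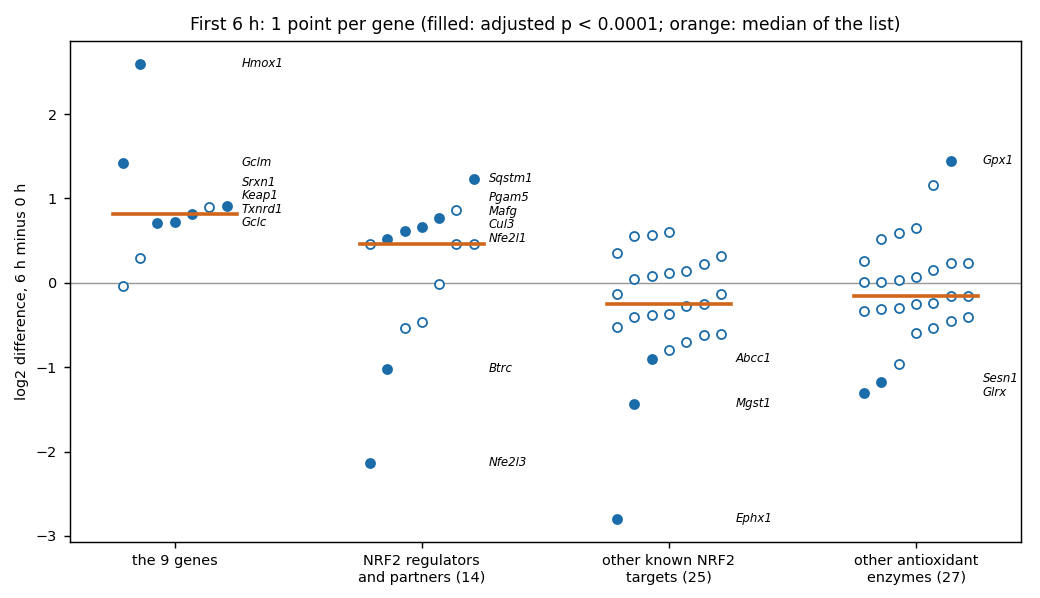
Log2 difference of 6 h from 0 h, 1 point per gene, for the 9 genes and the 3 further lists (horizontal axis, number measured in brackets). Filled points have limma adjusted p < 0.0001 and carry the gene's name, and orange lines are medians, 0.81 for the 9 genes, 0.46 for regulators and partners, -0.25 for other targets and -0.16 for other antioxidant enzymes.

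From 0 h to 120 h, 5 of the 14 regulators and partners rose and none fell, where 12.9% of all genes rose and 10.1% fell. The largest were Bach2 (log2 2.77 ± 0.25), a repressor that competes for AREs, Mafk (2.11 ± 0.12), another small MAF, and Gsk3b (0.85 ± 0.16), a kinase that marks NRF2 for the β-TrCP ligase, whose call was lost without any 1 of the 4 libraries. Among the other targets 1 rose and 3 fell, with Mgst1 at 1.86 ± 0.28, Ephx1 at -2.22 ± 0.22 and Tkt, the transketolase of the pentose phosphate pathway, at -0.75 ± 0.09. The call of Mgst1 was lost without replicate B of 120 h (log2 1.78). In the list of antioxidant enzymes 3 rose and 6 fell. The largest were Msrb3 (2.83 ± 0.36), a methionine sulfoxide reductase, Txnip (-2.24 ± 0.30), and Gpx8 (1.94 ± 0.20), a peroxidase of the endoplasmic reticulum. Msrb3 rose from a level of only -0.19 log2 CPM at 0 h, by 3.45 in replicate A and 2.21 in replicate B. Txnip was counted in this list although it encodes an inhibitor of thioredoxin. The 18 calls of the 3 lists were 10 or 11 without any 1 library. Over the whole course 12 of 14, 19 of 25 and 20 of 27 genes of the lists were called in the F test, where 74.6% of all genes were.

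Across the 42 libraries, which share time, depth and the cultures, the courses of the 9 genes were alike in some pairs only. The highest Pearson r between any 2 of them was 0.91, for Keap1 with Srxn1, followed by 0.71 for Hmox1 with Gclm, and the lowest was -0.44, for Nqo1 with Txnrd1. Each of the 9 had genes outside the set that were closer to it. Nearest to Hmox1 were Ppp1r10 (r = 0.93), 2310057M21Rik (0.92) and Ccnyl1 (0.91). Nearest to Nqo1 were Esam (0.97), Nr0b1 (0.97) and Eif4e2 (0.97). Keap1 was closest to Erf (0.94), Nr4a1 (0.94) and Ehd1 (0.92), and Srxn1 to Hbegf (0.93), Ehd1 (0.92) and Lmna (0.92), so that Ehd1 stood in both. For Gclm they were Sephs1 (0.88), Dazl (0.86) and Ppp3r1 (0.86), and for Gclc Tapt1 (0.79), Lemd3 (0.78) and Zfp36l2 (0.78). Txnrd1 followed Klhl21 (0.88), Ctnnb1 (0.87) and Zfp664 (0.87). The flat Nfe2l2 reached 0.86 with the gene ENSMUSG00000053664.3, 0.80 with Pabpc1 and 0.76 with Paf1. These are descriptions over libraries that are not independent.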

How the data were processed

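Stranded poly-A libraries (42) were sequenced, and per the labels and methods the authors used Trim Galore! for trimming, TopHat2 for alignment to mm10, HTSeq for counts on GENCODE vM2 and edgeR for scaling, then voom. A gene needed over 1 CPM in 2 or more samples. Tool versions are not given in the sources used here. The deposited values are log2 CPM with the voom offset of 0.5, from which whole reads were recovered to within 2.91e-08 of a read. Identifiers were matched to GENCODE vM21 on GRCm38 for 14177 of 14296 genes.

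A factor of 21 time points was fitted on all 42 libraries with limma 3.58.1 in R 4.3.3 (lmFit, eBayes with a trend, 21 residual degrees of freedom). The Benjamini-Hochberg correction was made within a contrast. The fit was tested on simulated data. Every one of the 9 genes is named, with the 3 largest calls of each further list at 6 h and at 120 h and the 3 genes of highest Pearson r, which for G6pdx are not reported here. Pgam5, Mafg, Cul3 and Nfe2l1 complete the calls at 6 h. Members and lists were chosen with earlier results of these data known. Alternatives were a replicate block, voom weights, no trend, another scaling, offset, filter, threshold and correction, and leaving out libraries. Leaving out both libraries of 96 h was added after the data were seen. Where 1 library was left alone at a time point, it was assumed to vary like the others. Motifs were searched in Python 3.11.15.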

Additional observations from a re-analysis of the deposited data

How the results depend on the processing

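Counts of called genes among the 9 and in the 3 lists were recomputed under each alternative. The letters A and B were not taken to pair the libraries in the main fit. The correlation of same-letter deviations was 0.08 on average over 210 pairs of time points (-0.47 to 0.60), and 47.1% of the pairs were over 0.1. Such an average does not show that libraries of 1 letter are unrelated, so a replicate block was fitted as an alternative. With a replicate block, 2 of the 9 genes passed from 24 h to 48 h in place of 1, as also with voom weights. The block further called Txnrd1 from 6 h to 12 h (adjusted p = 4.02e-05), Gclc from 6 h to 24 h (9.94e-05), and Gclm (9.38e-05) and Txnrd1 (1.22e-05) from 108 h to 114 h, which makes 4 there, and gave 17 gene-steps. Voom weights called Nqo1 at 6 h (6.96e-05). Median-centred libraries, log2(CPM + 1), a mean of at least 0 log2 CPM and no trend kept all 14 counts within 1.5 times, although Gclm from 6 h to 12 h and G6pdx from 48 h to 120 h lost their calls without the trend or with median centring, as did Gsk3b at 120 h without the trend. Mgst1 at 6 h lost its call with voom weights, with log2(CPM + 1) and with the correction over all contrasts, and G6pdx from 48 h to 120 h with the last. At adjusted p < 0.05 the counts were 6 from 24 h to 48 h, 4 from 48 h to 72 h, 3 from 72 h to 96 h, 3 from 96 h to 120 h, 31 gene-steps, 117 differences from 0 h, and 38 and 36 list genes at 6 h and 120 h. Of all genes, 17.8% passed this threshold from 96 h to 120 h. The share over all genes is not given for the other counts, so whether they exceed it cannot be read from them. At 6 h, 29.0% of all genes were higher and 33.0% lower at an unadjusted limma p under 0.05. With the correction over all contrasts, 2 genes passed from 24 h to 48 h and 1 from 96 h to 120 h. Without both libraries of 96 h, an alternative chosen after seeing the data, 4 passed from 24 h to 48 h and 7 from 0 h to 6 h. Without 1 library at a time, the ranges were 3 to 5 genes from 0 h to 6 h, 2 to 2 from 6 h to 24 h, 0 to 0 from 24 h to 48 h, 0 to 1 from 48 h to 72 h, 0 to 2 from 72 h to 96 h, 0 to 2 from 96 h to 120 h, 2 to 3 from 48 h to 120 h and 1 to 2 from 0 h to 120 h, 7 to 21 gene-steps, 48 to 90 differences from 0 h, and 7 to 10 and 10 to 11 list genes at 6 h and 120 h. Of the small differences that were not called, 3 changed sign, Nfe2l2 from 102 h to 108 h (-0.050 to 0.116), Srxn1 from 0 h to 120 h (-0.069 to 0.045) and Keap1 from 6 h to 12 h (-0.131 to 0.009). Each value of the 9 genes rests on at least 224 reads and each time point on 2 libraries.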

Other observations

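Of the 66 measured genes of the 3 lists, 1 rose and 1 fell from 102 h to 108 h, where 1.37% of all genes rose and 0.672% fell. They are named here after their values were seen. Maff, a small MAF partner of NRF2, rose by 1.22 ± 0.19 on the log2 scale (4.05 to 5.26 log2 CPM, higher in both replicates, limma adjusted p = 5.39e-05), and the call was lost without any 1 of the 4 libraries (limma adjusted p = 0.00112 to 0.0016). Txnip, which encodes an inhibitor of thioredoxin, fell by 2.59 ± 0.30 (9.03 to 6.44 log2 CPM, lower in both replicates, limma adjusted p = 9.17e-07), and the call was lost without replicate B of 102 h (log2 -2.23) or of 108 h (log2 -2.49).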
